A study of Mus musculus with 26 samples.

Results

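The genes described here are 3 subunits of receptors for the neurotransmitter GABA and 3 GABA transporters, 6 of the 23337 genes counted in each sample. The receptor subunits are Gabrr1, Gabrr2 and Gabrp, and the transporters are Slc6a11, Slc6a12 and Slc6a13. They were chosen by name, with the lower Gabrr1 count of both mutant epididymal segments already known, so every ArKI-to-WT value of the 6 genes in the epididymis is given as a description without a test. RNA was sequenced from ArKI mice and wild-type (WT) mice aged 3 months, of strain C57Bl/6N; 129 hybrid. ArKI mice carry a germline knock-in that replaces both SUMO-acceptor lysines of a nuclear receptor by arginine, so the altered protein is made from its own locus in every cell that uses that gene. The mice came from hybrid embryonic stem cells, and WT mice of the same strain label served as controls. The samples were the initial segment of the epididymis (IS, 5 ArKI and 5 WT), the caput epididymidis (5 ArKI and 5 WT) and the testis (3 ArKI and 3 WT), 26 samples in all. None of the groups carried another allele or a treatment.

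GABA opens chloride channels of the GABA-A family, which are rings of subunits, and activates the GABA-B receptor, which is coupled to G proteins. The rho subunits encoded by Gabrr1 and Gabrr2 form GABA-gated chloride channels best known from the retina. The pi subunit encoded by Gabrp is a GABA-A subunit found mainly outside the brain, for example in the uterus. Slc6a11, Slc6a12 and Slc6a13 encode sodium- and chloride-dependent carriers that take up GABA, and the Slc6a12 product also carries betaine, an osmolyte of cells exposed to concentrated fluid. The IS and the caput are the first regions of the epididymal duct, where an androgen-dependent epithelium sets the composition of the fluid around the sperm.

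The 6 genes lie in 4 places of the genome (GRCm38, RefSeq annotation). Gabrr2 (chr4:33057712-33095865) and Gabrr1 (chr4:33132556-33163588) are neighbours on the plus strand, 36690 bases apart. Slc6a13 (chr6:121300288-121337721) and Slc6a12 (chr6:121342574-121365773) are neighbours on the plus strand of chromosome 6, 4852 bases apart. Slc6a11 lies elsewhere on that chromosome (chr6:114131241-114249886, plus strand) and Gabrp on the minus strand of chromosome 11 (chr11:33550781-33578978). Since the mutated protein is a DNA-binding receptor, the 250 bases before each annotated start of the 6 genes (RefSeq, GRCm38.p6) were searched for the hexamer that steroid receptors recognise, TGTTCT or on the other strand AGAACA. All 6 genes had at least 1 start in the promoter table, 12 windows in all, of which 5 belong to Slc6a12 and 3 to Slc6a13. The hexamer stood in 1 of the 12 windows, that of Gabrr2, 167 bases before the start. It stood in 16.1% of all 32851 windows of the same length. The inverted repeat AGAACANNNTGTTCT, which holds the hexamer on both strands, was in none of the 12 windows and in 3 of the 32851. A match is a string of letters and not a binding site, and a window without one shows only that these letters are absent from it.

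The windows of 4 genes are printed here, Gabrr1 for its lower counts in ArKI epididymis, its neighbour Gabrr2 for the hexamer, and Gabrp and Slc6a12 for their higher counts in ArKI caput, in the direction of transcription, with the hexamer in capitals.
Gabrr1 (chr4:33132306-33132555, plus strand): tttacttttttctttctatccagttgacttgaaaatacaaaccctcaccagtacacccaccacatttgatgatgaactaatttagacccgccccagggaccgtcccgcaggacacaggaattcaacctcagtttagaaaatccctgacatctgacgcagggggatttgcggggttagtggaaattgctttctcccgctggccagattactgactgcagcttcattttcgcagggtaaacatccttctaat
Gabrr2 (chr4:33062862-33063111, plus strand, a start inside the annotated gene): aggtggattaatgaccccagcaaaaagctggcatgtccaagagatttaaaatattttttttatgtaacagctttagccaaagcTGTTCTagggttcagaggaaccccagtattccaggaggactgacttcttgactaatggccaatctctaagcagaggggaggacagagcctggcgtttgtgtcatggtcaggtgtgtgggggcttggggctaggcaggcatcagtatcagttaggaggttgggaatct
Gabrp (chr11:33578958-33579207, minus strand): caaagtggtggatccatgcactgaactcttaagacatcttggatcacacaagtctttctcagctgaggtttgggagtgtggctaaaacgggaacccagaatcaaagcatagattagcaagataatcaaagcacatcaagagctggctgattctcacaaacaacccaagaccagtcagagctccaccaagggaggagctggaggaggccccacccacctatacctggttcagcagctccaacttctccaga
Slc6a12 (chr6:121342324-121342573, plus strand, the first of its 5 starts): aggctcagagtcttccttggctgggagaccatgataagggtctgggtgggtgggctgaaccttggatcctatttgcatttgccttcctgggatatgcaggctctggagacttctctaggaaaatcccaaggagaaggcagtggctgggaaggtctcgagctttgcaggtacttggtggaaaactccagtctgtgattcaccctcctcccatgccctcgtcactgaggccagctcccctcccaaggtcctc

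Levels are given as counts per 1000000 counts of the library (CPM), scaled by trimmed-mean (TMM) factors over all 26 samples. IS samples held 5829074 to 9770625 counts, caput samples 4125768 to 11913469 and testis samples 14077013 to 21376604. At these depths 3 counts, taken as the floor, correspond to between 0.176 and 0.631 CPM. Exact counting intervals and floors cover counting error only. The testis was sequenced in batch 1 and both epididymal segments in batch 2, so tissue and sequencing batch cannot be told apart wherever the testis is compared with the epididymis. The IS marker Rnase10 and the caput marker Lcn5 matched the tissue labels, while the caput markers Gpx5 and Crisp1 did not. Rnase10 ranged from 8996 to 10355 CPM in the WT IS and from 174 to 1293 in the WT caput, and Lcn5 from 60.0 to 107 CPM in the WT IS and from 13109 to 16238 in the WT caput. Gpx5 overlapped between the WT segments (38080 to 46300 CPM in the IS and 40880 to 57644 in the caput), and Crisp1 went against the label, at 1289 to 2211 CPM in the WT IS and 16.9 to 855 CPM in the WT caput. For genes other than the 6, and for the 6 outside the ArKI-to-WT comparisons of the epididymis, a difference counts as called where edgeR's quasi-likelihood test gave a Benjamini-Hochberg adjusted p below 0.01 (below 0.2 within the testis) and the fold was above 2. In whole tissue, fewer cells of a type and less RNA per cell cannot be told apart.

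Gabrr1, the first rho subunit, stood lower in ArKI than in WT mice in both epididymal segments. In the WT IS it stood at 8.66, 5.90, 5.26, 2.67 and 8.74 CPM, from 20 to 89 counts per sample. In the ArKI IS it stood at 0.627, 0.660, 0.270, 0.320 and 0.333 CPM, from 2 to 5 counts per sample. Every ArKI sample was below every WT sample, and all but 2 of the ArKI samples had at most 3 counts. In the WT caput Gabrr1 was at 2.49, 6.03, 7.78, 6.88 and 3.09 CPM. In the ArKI caput it was at 0.114, 0, 0.339, 0.244 and 0.312 CPM, that is from 0 to 4 counts per sample. The groups again did not overlap. The means were 6.25 ± 2.55 against 0.442 ± 0.186 CPM in the IS and 5.25 ± 2.35 against 0.202 ± 0.142 CPM in the caput (WT against ArKI, SD, n = 5 each). The fitted log2 difference was -3.79 ± 0.38 (SE) in the IS, a 13.8-fold lower level, and -4.41 ± 0.46 in the caput, a 21.2-fold lower level.

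**Figure D1:**
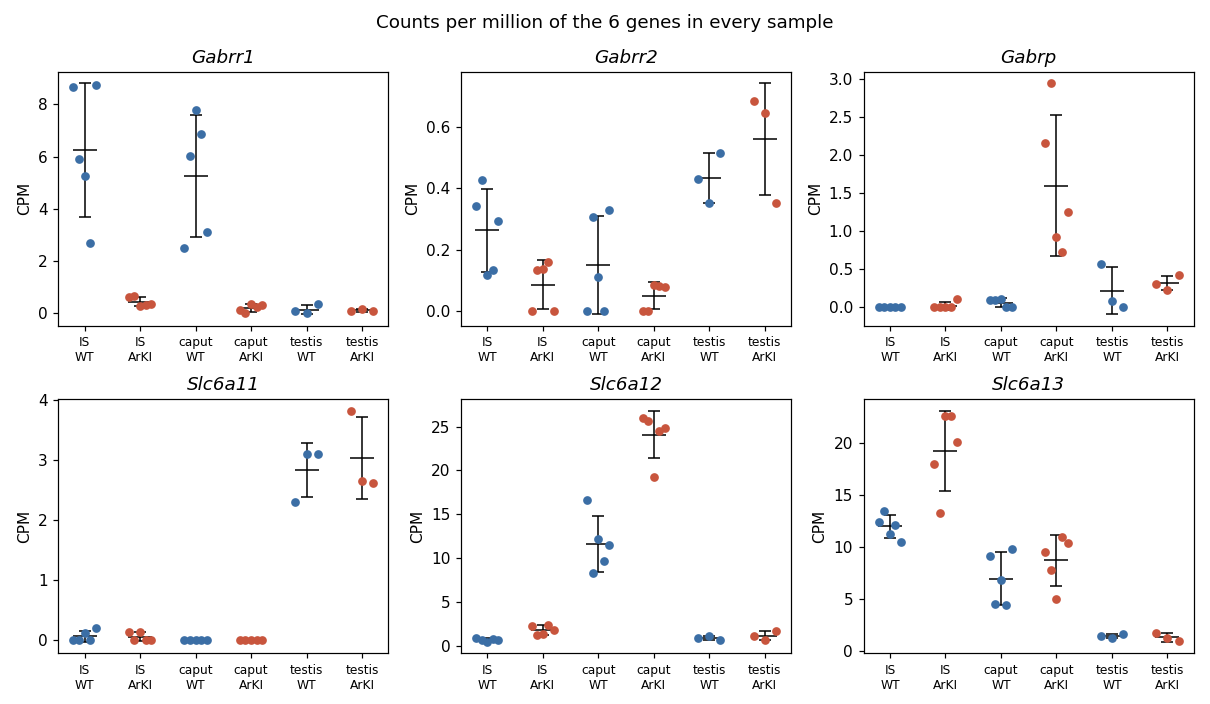
Levels in CPM (linear axes that differ between panels) of the 6 genes in each of the 26 samples, WT in blue and ArKI in red, with the group mean and SD as black bars. Gabrr1 lies between 2.49 and 8.74 CPM in the 10 WT epididymal samples and at or below 0.660 CPM in the 10 ArKI ones, while Gabrp reaches 0.731 CPM or more in the ArKI caput and stays at or below 0.576 CPM in the other samples.

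Of the 6 genes 2 passed the filter on low counts in the IS, Gabrr1 and Slc6a13, and 3 in the caput, where Slc6a12 passed as well. Gabrr1 passed through its WT samples alone, none of the ArKI samples reaching the level of the filter. Groups that did not overlap were seen for 20.2% of all IS genes tested and for 20.1% of those tested in caput. The difference of the Gabrr1 differences, caput minus IS, was -0.61 ± 0.80 on the log2 scale.

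The Gabrr1 level in the WT caput differed from library to library together with the IS markers. Rnase10 stood at 174, 474, 1104, 1293 and 356 CPM in WT caput replicates 1 to 5, and Cst8, a second IS marker, at 14.1, 60.2, 306, 290 and 53.7 CPM. The replicates with the lowest Rnase10, 1 and 5, also had the lowest Gabrr1 and the highest Slc6a13 (9.18 and 9.82 CPM). The 3 IS markers summed to between 455 and 1867 CPM in the WT caput and to between 480 and 1073 in the ArKI caput, and none was at the floor in either group. Their median fitted log2 difference was -1.19 and none of the 3 was called, with Rnase10 at 680 ± 490 and 300 ± 192 CPM and Cst8 at 145 ± 141 and 34.9 ± 31.9 CPM (WT and ArKI caput, SD, n = 5 each). The ArKI caput sample with the highest Rnase10, 616 CPM, had 0.339 CPM of Gabrr1, and the WT caput sample with the lowest Rnase10, 174 CPM, had 2.49 CPM. In the IS itself Rnase10 was at 7678 ± 402 CPM in ArKI and 9568 ± 571 CPM in WT mice. The 3 IS markers summed there to between 12575 and 14076 CPM in WT and to between 9907 and 11227 CPM in ArKI samples, with none called and none at the floor. Crisp1 also stood lower in the ArKI IS (329 ± 84.5 against 1967 ± 393 CPM in WT). The part of these markers in the Gabrr1 difference was not tested. Markers of other cell types also stood lower in the ArKI IS. The 8 sperm and germ cell markers summed to between 9.33 and 63.9 CPM in the WT IS and to between 1.89 and 5.28 CPM in the ArKI IS, with 4 of the 8 at or under the floor in the latter. In the caput their sums were 210 to 329 CPM in WT and 32.6 to 93.3 CPM in ArKI mice, and 8 of 8 were called lower. The 5 smooth muscle markers summed to between 3214 and 3426 CPM in the WT IS and to between 2674 and 3217 CPM in the ArKI IS, with 2 of 5 called lower and none at the floor, and these sums overlapped. In 3 other lists they did not. The 4 basal cell markers summed to between 317 and 363 CPM in the WT IS and to between 252 and 278 CPM in the ArKI IS, the 4 endothelial markers to between 90.5 and 108 and between 62.2 and 74.8 CPM, and the 6 neuronal markers to between 24.5 and 32.5 and between 15.0 and 17.7 CPM. None of these was called lower, and only the neuronal list had markers at the floor, 4 of 6 in each group. The part of these cell types in the Gabrr1 difference was not tested.

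**Figure D2:**
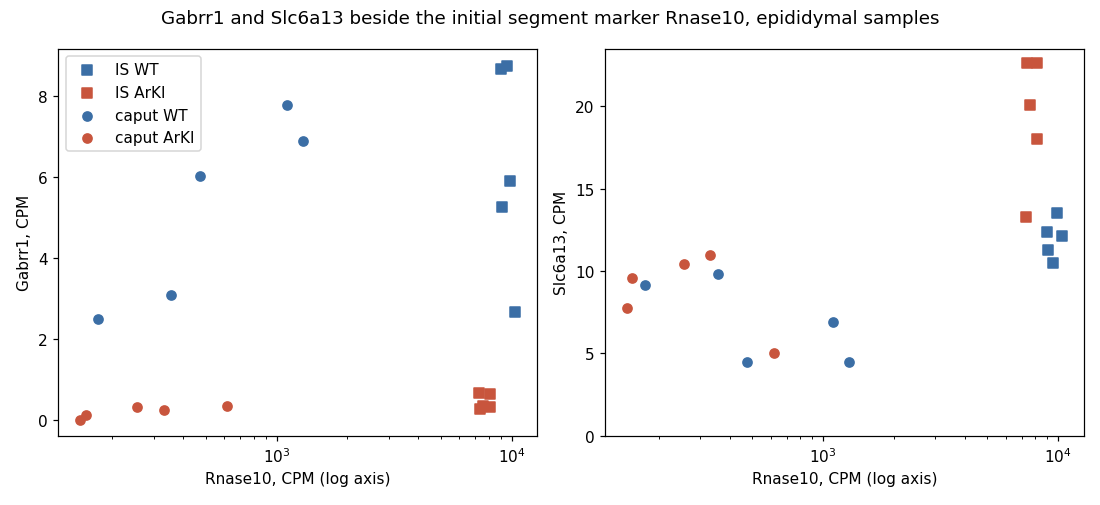
Gabrr1 (left) and Slc6a13 (right) in CPM on linear axes against the IS marker Rnase10 in CPM on a log axis, with each of the 20 epididymal samples as a point, squares for the IS, circles for the caput, blue for WT and red for ArKI. The 10 ArKI samples stay at or below 0.660 CPM of Gabrr1, while the WT caput samples with the least Rnase10 have the least Gabrr1 and the most Slc6a13 of their group.

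Gabrr2, the second rho subunit and the neighbour of Gabrr1, was near the limit of detection in all epididymal samples and passed no filter. It had 3, 4, 1, 1 and 3 counts in the WT IS, and 0, 1, 1, 1 and 0 counts in the ArKI IS. Over the group this is 12 counts against 3, a ratio of 3.45 for WT over ArKI with a 95% exact counting interval of 0.931 to 19.0. In the caput Gabrr2 had at most 3 counts in every sample of either genotype, so no fold is given. The ratio in the IS points the same way as that of Gabrr1, and its counting interval includes 1. Of the 2237 windows of 50 bases in Gabrr1 transcripts (GENCODE vM21), 57 (2.55%) also occur in Gabrr2. The placement of reads between these genes was not tested.

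Gabrp, the pi subunit, was the member that appeared in the ArKI caput. It had 1, 1, 1, 0 and 0 counts in the WT caput. In the ArKI caput it had 19, 14, 11, 9 and 16 counts, which is 2.16, 2.94, 0.931, 0.731 and 1.25 CPM. All ArKI samples were above all WT samples. The pooled counts of 69 against 3 gave a ratio of 21.5 with a 95% exact counting interval of 7.05 to 107, which ignores the spread between mice. Only 4 of the 20 epididymal samples reached 10 counts of Gabrp. It did not pass the filter, whose level in the caput comparison was 1.11 CPM. In the IS it was at 0 in all 5 WT samples and had 1 count in 1 of the 5 ArKI samples. ArKI caput replicate 2, the shallowest sample, had the highest Gabrp CPM. It also had the highest Crisp1 (2689 CPM, against 103 to 859 in the other ArKI caput samples) and the lowest Lcn5 (9242 CPM) and Gpx5 (29959 CPM) of its group. The part of these caput markers in the Gabrp level was not tested. None of the 3374 windows of 50 bases in Gabrp transcripts occurs in another gene.

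Slc6a12, the betaine and GABA carrier, was higher in ArKI caput. The WT samples stood at 16.6, 8.28, 12.2, 9.64 and 11.5 CPM. The ArKI samples stood at 26, 25.7, 19.3, 24.5 and 24.8 CPM. The lowest ArKI sample was above the highest WT sample. The fitted log2 difference was 1.03 ± 0.16 (SE), or 2.04-fold. It was 0.92 without WT replicate 2, 0.97 without WT replicate 4 and 0.997 without ArKI replicate 1. In the IS Slc6a12 was low, with 4 to 8 counts in WT and 9 to 18 counts in ArKI samples, and it did not pass the filter. There its mean was 0.702 ± 0.167 CPM in WT and 1.79 ± 0.535 CPM in ArKI mice, and the groups did not overlap. The caput-minus-IS difference of the genotype differences was -0.30 ± 0.36 on the log2 scale. Markers of other cells also stood higher in the ArKI caput without overlap of the groups. The 5 fibroblast markers summed to between 654 and 727 CPM in WT and to between 776 and 1739 CPM in ArKI samples, and the 4 endothelial markers to between 39.0 and 41.6 CPM and between 45.3 and 64.8 CPM, with none of either list called and none at the floor. The 6 neuronal markers, of which 3 in WT and 2 in ArKI samples were at the floor, summed to between 13.5 and 17.6 and between 17.7 and 26 CPM. Sertoli cells belong to the testis, so in the caput the 5 genes listed for them do not mark that cell type. These 5 summed to between 70.2 and 77.3 CPM in WT and to between 91.7 and 110 CPM in ArKI samples, with 1 called lower. The part of any of these markers in the caput differences of Slc6a12 and Gabrp was not tested.

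Slc6a13, which encodes a GABA carrier of peripheral tissues such as liver and kidney, stood higher in the ArKI than in the WT IS on average. In the WT IS it stood at 12.4, 13.5, 11.3, 12.1 and 10.5 CPM. In the ArKI IS it stood at 18.0, 13.3, 22.6, 22.6 and 20.1 CPM. All ArKI samples but replicate 2 were above the whole WT group. The fitted log2 difference was 0.69 ± 0.13, or 1.61-fold. In the caput the WT samples spanned 4.48 to 9.82 CPM and the ArKI samples 5 to 11 CPM, with a log2 difference of 0.33 ± 0.27 and overlapping groups. The caput-minus-IS difference of these differences was -0.36 ± 0.31 on the log2 scale. The ciliated cell markers, which include Foxj1, also stood higher in the ArKI IS. Their sum over 3 markers was 43.9 to 62.1 CPM in WT and 67.8 to 218 CPM in ArKI samples, with 1 of the 3 called higher, a median log2 difference of 1.31 and none at the floor. Foxj1 was at 57.2, 32.7, 118, 57.6 and 77.2 CPM in ArKI replicates 1 to 5, lowest in the replicate that was also lowest in Slc6a13. In the WT IS, replicate 5 had the highest Foxj1 (33.8 CPM) and the lowest Slc6a13 (10.5 CPM). In the caput the ciliated sums went the other way, at 12.5 to 15.8 CPM in WT and 9.89 to 11.9 CPM in ArKI samples. The part of these cells in the Slc6a13 difference was not tested.

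Slc6a11, a GABA carrier known from astrocytes, was not detectable above the floor in the epididymis. IS samples held 0 to 2 counts of it and all 10 caput samples 0, so no ArKI-to-WT fold is given. The caput floor allows up to 0.631 CPM in the shallowest sample.

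In the testis, whose values were not part of the stated ground for choosing the genes, ArKI and WT mice were compared by test. Earlier results of these data were known at the choice. None of the 3 members that passed the filter was called, against 0.833% of 15838 genes. Slc6a11 stood at 2.30, 3.09 and 3.10 CPM in WT and at 3.82, 2.65 and 2.61 CPM in ArKI testis. Its log2 difference was 0.07 ± 0.22 (95% confidence interval -0.39 to 0.53, edgeR adjusted p = 0.93). Slc6a12 differed by 0.33 ± 0.39 (-0.48 to 1.14, edgeR adjusted p = 0.78) and Slc6a13 by -0.18 ± 0.29 (-0.79 to 0.43, edgeR adjusted p = 0.85). These intervals reach a doubling for Slc6a12 but not for Slc6a11. At an unadjusted p below 0.05 the count was also 0, and DESeq2 and limma-voom called none of the 3. The signs of Slc6a11 and Slc6a12 depended on single samples and are given with the limits at the end. Gabrr1, Gabrr2 and Gabrp were too low for the fit. Gabrr2 had 6, 4 and 6 counts in WT and 9, 11 and 5 in ArKI testis (exact permutation test, two-sided, p = 0.3, adjusted over 7 such tests 0.53). Gabrr1 and Gabrp gave p = 0.9 and p = 0.5 in the same exact permutation test. With 3 against 3 samples that test cannot go below 0.1.

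Among WT tissues Slc6a12 was highest in the caput, Slc6a13 in the IS and Slc6a11 in the testis, and Gabrr1 was seen in both epididymal segments. In the WT IS Slc6a12 was at 0.702 ± 0.167 CPM and in the WT caput at 11.6 ± 3.19 CPM (SD, n = 5 each), a log2 difference of -4.04 ± 0.25 for IS minus caput. It passed the filter through its caput samples alone, so no test of that difference is given. The groups were far apart, with at most 0.912 CPM in the IS and at least 8.28 CPM in the caput. Slc6a13 went the other way, at 12.0 ± 1.14 CPM in the IS and 6.98 ± 2.52 CPM in the caput, a log2 difference of 0.77 ± 0.19 (edgeR adjusted p = 0.0027, 5 of 5 IS samples above all caput samples, as groups that do not overlap were seen for 57.7% of all genes tested), under the fold limit. Gabrr1 did not differ beyond its spread between the WT segments (0.28 ± 0.39, 95% confidence interval -0.59 to 1.15, edgeR adjusted p = 0.54). Per the study's methods both segments were taken from 5 mice of a genotype, but the labels do not tie an IS sample to the caput sample of the same mouse. With equal replicate numbers treated as a block, the Slc6a13 difference between the WT segments was 0.78 (edgeR adjusted p = 0.012). The Slc6a13-to-Slc6a12 ratio of CPM had a median of 15.3 (13.6 to 24.2) in the WT IS and of 0.552 (0.464 to 0.856) in the WT caput. In ArKI mice the medians were 11.2 (8 to 16.7) and 0.367 (0.259 to 0.447), so the order of the neighbouring genes within each segment was the same in both genotypes. They share 4 of the 2849 windows of 50 bases in Slc6a13 (0.140%).

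**Figure D3:**
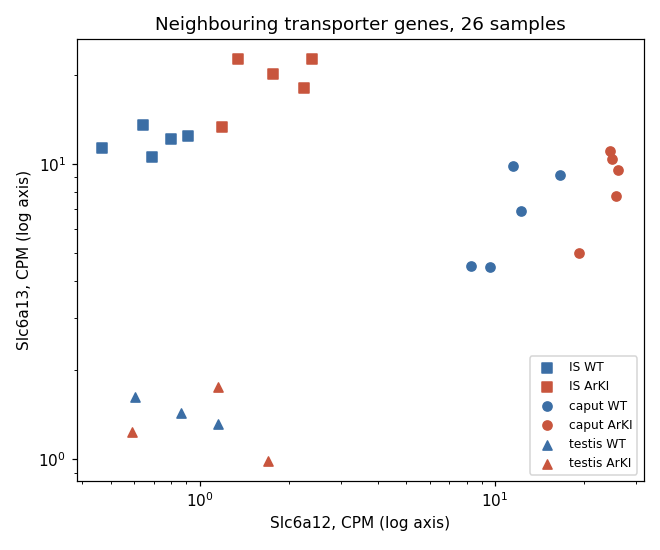
Slc6a13 against Slc6a12, both in CPM on log axes, with each of the 26 samples as a point (squares IS, circles caput, triangles testis, blue WT, red ArKI). IS samples lie at high Slc6a13 and low Slc6a12, caput samples at high Slc6a12, with the ArKI caput farthest to the right (19.3 to 26 CPM), and testis samples are low in both.

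Slc6a11 was seen in the testis. In WT testis it had 32, 35 and 36 counts, which is 2.83 ± 0.457 CPM (SD, n = 3). Against the WT IS, with 103 counts to 3 in the group, the ratio was 41.3 (95% exact counting interval 13.7 to 204). Against the WT caput, where it had 0 counts, it was at least 8.86-fold higher, computed at 3 counts per library. Slc6a11 passed the filter through its testis samples alone, so no test is given. Gabrr1 had 1, 0 and 4 counts in WT testis, with a fitted log2 difference of -5.37 ± 0.80 against the IS and of -5.10 ± 0.83 against the caput, and it passed the filter through its epididymal samples alone, so these too have no test. Leaving out WT testis replicate 3 moved these values to -6.88 and -6.61. Without WT IS replicate 5 the fitted log2 difference of Slc6a11 from the IS moved from 5.18 to 6.07. Slc6a13 was lower in testis, at 1.47 ± 0.157 CPM (-2.97 ± 0.26 against the IS and -2.21 ± 0.28 against the caput, edgeR adjusted p = 6.1e-10 and 1.7e-07). Slc6a12, which passed through its caput samples alone, had a log2 difference of -3.69 ± 0.26 between testis and caput, given without a test, and did not differ beyond its spread from the IS (0.36 ± 0.42, edgeR adjusted p = 0.42), where the sign changed under scaling by library size alone (-0.044). Over all 16402 genes tested 69.3% were called in each comparison. The median over all genes was shifted by 0.19 and 0.16 on the log2 scale in the comparisons with the IS and the caput. Gabrr2 was at 0.434 ± 0.0815 CPM in WT testis, above all WT caput samples, in a comparison where 89.9% of all genes tested do not overlap (exact permutation test, two-sided, p = 0.036, adjusted 0.25) and overlapping the WT IS (p = 0.071 in the same exact test, adjusted 0.25). Gabrp had 8, 1 and 0 counts in WT testis, 1 sample alone being above the floor.

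Per length, the CPM per kilobase of exon (RPKM) put Slc6a13 first among the 6 in the WT IS (5.36 ± 0.509), followed by Gabrr1 (2.73 ± 1.11). The values of Slc6a12 (0.263 ± 0.0626), Gabrr2 (0.136 ± 0.0699), Slc6a11 and Gabrp were lower, and those of Slc6a12 and Gabrr2 lie within 2 SD of each other. In the WT caput the order was Slc6a12 (4.35 ± 1.19), Slc6a13 (3.12 ± 1.13) and Gabrr1 (2.30 ± 1.03), neighbours that overlap within their SD. In WT testis Slc6a11 (0.685 ± 0.111) and Slc6a13 (0.656 ± 0.0702) lay within their SD of each other, above Slc6a12 (0.326 ± 0.102) and Gabrr2 (0.224 ± 0.0422). In the ArKI caput Slc6a12 reached 9 ± 1.02 RPKM, while Gabrp at 0.489 ± 0.283 RPKM exceeded Gabrr1 at 0.0882 ± 0.0623.

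**Figure D4:**
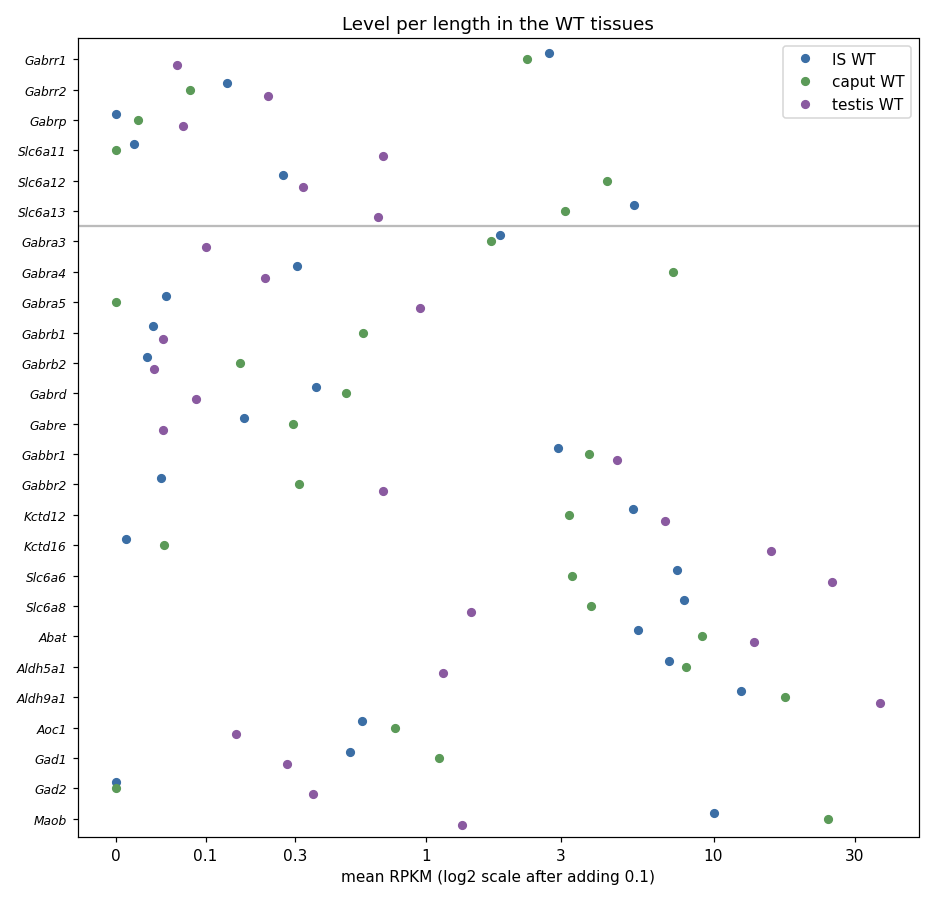
Mean RPKM in the WT IS (blue), caput (green) and testis (purple) on a log2 scale after adding 0.1, for the 6 genes (above the line) and other listed genes of GABA-A and GABA-B receptors, GABA transport and GABA metabolism with at least 0.1 RPKM in 1 tissue. In the caput Gabra4 lies at 7.26 and Slc6a12 at 4.35 RPKM, in the IS Slc6a13 at 5.36 and in the testis Slc6a11 at 0.685 RPKM.

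The partners of these proteins were followed in a list of 47 other genes. It holds 16 GABA-A subunits, 5 genes of the GABA-B receptor, 4 transporters, 7 enzymes of GABA synthesis and breakdown, 10 genes of receptor trafficking and 5 chloride cotransporters, which set whether a GABA-gated channel lets chloride in or out. Between ArKI and WT none was called in the IS (0 of 26 tested), the caput (0 of 29) or the testis (0 of 31) by edgeR, DESeq2 or limma-voom, beside 4.04% of 13434, 4.98% of 13726 and 0.833% of 15838 genes by edgeR. At an unadjusted p below 0.05 the counts were 11, 15 and 5, beside 39.7%, 37.7% and 13.1% of all genes tested. Their median log2 difference was 0.03 in the IS, -0.01 in the caput and -0.02 in the testis, beside 0.00 over all genes in each. Below the fold limit, an adjusted p under 0.01 was found for 6 listed genes of the IS and for 6 of the caput, where 18.8% and 18.0% of all genes passed that threshold alone. Slc12a7, a potassium-chloride cotransporter, was higher in ArKI IS (0.50 ± 0.12, edgeR adjusted p = 0.0056) and caput (0.45 ± 0.06, edgeR adjusted p = 3.4e-05). Abat, the transaminase that degrades GABA, was lower in ArKI caput (-0.63 ± 0.07, edgeR adjusted p = 6.9e-06), and Gabbr1, a subunit of the GABA-B receptor, was higher in ArKI IS (0.38 ± 0.08, edgeR adjusted p = 0.0016). Of the 16 GABA-A subunits listed, 2 were tested in the IS and 4 in the caput, and the others did not pass the filter there. Those tested ranged from 0.05 to 0.15 in the IS and from -0.43 to 0.16 in the caput on the log2 scale. The lowest of them was Gabra4 in the caput (-0.43 ± 0.12, edgeR adjusted p = 0.015). Plcl1, a receptor-associated protein, was lower in both segments (-0.42 ± 0.10 and -0.44 ± 0.07, edgeR adjusted p = 0.0022 and 0.00018). In the testis Gad1, which makes GABA, came nearest with 0.97 ± 0.28 (edgeR adjusted p = 0.087), just under the fold limit. For the 30 listed genes tested, no segment-by-genotype interaction had an edgeR adjusted p below 0.01 (7 at an unadjusted p below 0.05, none by DESeq2 or limma-voom), against 8.18% of 14329 genes, and 27.8% at an unadjusted p below 0.05.

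**Figure D5:**
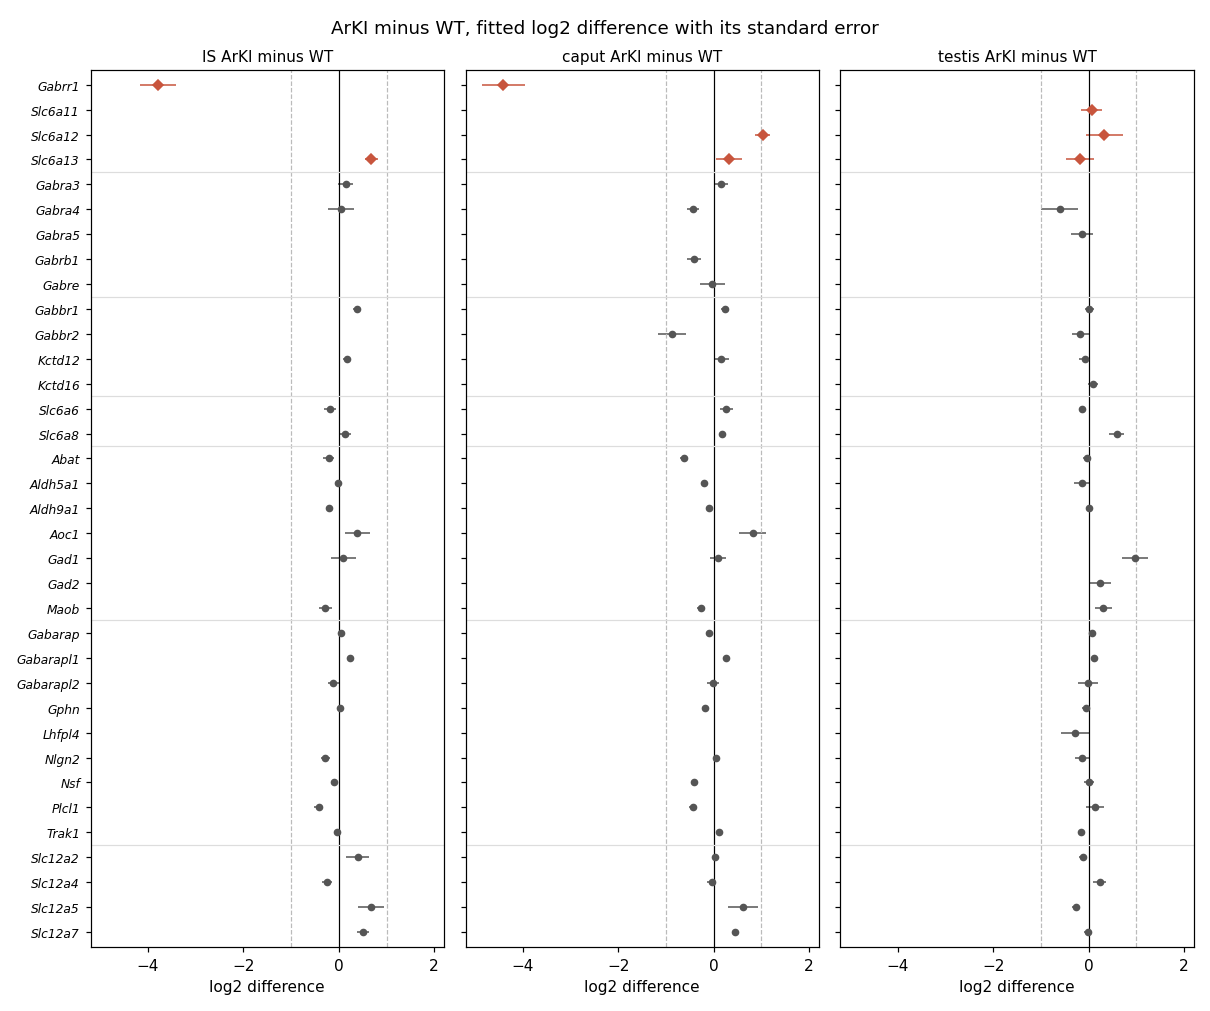
Fitted log2 difference (points) with its standard error (bars), ArKI minus WT, in the IS, caput and testis, for the members that passed the filter (red diamonds, top) and listed genes (grey), with dashed lines at the fold limit of 2. Gabrr1 lies at -3.79 in the IS and -4.41 in the caput, and every listed gene plotted lies between -0.88 and 0.97.

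Between WT segments, of 27 listed genes tested 2 were called higher in the IS and 7 lower, 9 in all (33.3%), beside 20.8% of all 13787 genes. Of the 9 called, Gabrb1 reached the filter in the caput alone, and without it 8 were called (2 higher and 6 lower). Without the fold limit 20 passed, beside 62.2% of all genes, and in the testis between genotypes 3, beside 5.34%. The caput had the GABA-A subunits Gabra4 (30.4 ± 2.59 against 1.28 ± 0.201 CPM in the IS, log2 difference -4.56 ± 0.13, edgeR adjusted p = 7e-17) and Gabrb1 (7.90 ± 0.606 against 0.455 ± 0.413 CPM, -4.03 ± 0.30, given without a test since it passed the filter through the caput alone). These differences were of the size of that of Slc6a12. Gad1, Maob, Nlgn2, Nsf and Slc12a7 were also lower in the IS, with log2 differences between -1.27 and -1.06. Slc6a6, the taurine carrier, and Slc6a8, the creatine carrier, were higher in the IS, as Slc6a13 was, by 1.18 ± 0.08 and 1.05 ± 0.08. WT testis differed from the IS in 22 of 34 listed genes (10 higher, 12 lower) and from the caput in 24 (10 higher, 14 lower), 64.7% and 70.6%, near the background of 69.3%. Of these, 10 and 11 reached the level of the filter in 1 of the compared tissues alone. Without them, 12 genes were called against the IS (4 higher in testis and 8 lower) and 13 against the caput (5 higher and 8 lower). Higher in testis than in both segments were Aldh9a1, Slc6a6 and Slc12a5, with Abat higher than in the IS and Gabbr2 and Kctd12 higher than in the caput. Lower than in both were Aldh5a1, Maob, Gabarapl2, Nlgn2, Nsf, Plcl1 and Slc6a8, with Slc12a4 lower than in the IS and Gad1 lower than in the caput. The genes that reached the filter in 1 of the tissues are given without a test. Gabra3, Gabre and Aoc1 (listed as Abp1) reached it in epididymal samples and in no testis sample, as Gabra4 and Gabrb1 did. Like Slc6a11, the GABA-A subunit Gabra5 (29 to 39 counts) and the GABA-making enzyme Gad2 (23 to 29) were seen in WT testis and had at most 2 counts in any WT epididymal sample. Kctd16, an auxiliary GABA-B subunit, had 494 to 574 counts in WT testis and at most 2 in WT epididymal samples. Per length, the highest GABA-A subunit of the list was Gabra3 in the WT IS (1.84 ± 0.275 RPKM, below Gabrr1) and Gabra4 in the caput (7.26 ± 0.62 RPKM, above all 6 members). Of the 4 other transporters the highest was Slc6a8 in the IS (7.96 ± 0.843 RPKM, overlapping Slc6a6 at 7.49 ± 0.438 within the SD) and caput (3.82 ± 0.165 RPKM, where the mean of Slc6a12 was above it), and Slc6a6 in the testis (25.2 ± 0.856 RPKM). The other roles were led by Kctd12, Gabbr1 and Kctd16 in the IS, caput and testis, by Aldh9a1, Maob and Aldh9a1 among the enzymes, by Slc12a7 among the cotransporters in the caput, and by Gabarap in all 3 tissues.

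The genes whose pattern over the 20 epididymal samples was most like that of a member were taken from 14328 other genes by Pearson's r of log2(CPM + 0.5), as a description, since all points share libraries and their depth. The r was taken across genotypes and segments and not within a group. It therefore includes the differences between groups, among them the Gabrr1 difference known when the genes were chosen. For Gabrr1 they were Gpnmb (r = 0.96), Ankrd34b (0.93) and Kirrel3 (0.92). Gpnmb, a membrane glycoprotein, was at 114 ± 23.6 CPM in WT and 34.7 ± 5.23 CPM in ArKI IS, and at 115 ± 19.0 and 28.4 ± 7.45 CPM in the caput. For Slc6a12 they were Ptpro (0.99), 9130230L23Rik (0.99) and Anxa6 (0.99). Ptpro, a receptor tyrosine phosphatase, was at 1.84 ± 0.426 and 3.30 ± 0.717 CPM in WT and ArKI IS and at 22.7 ± 5.82 and 65.6 ± 20.4 CPM in the caput. For Slc6a13 they were D2Ertd750e (0.90), Cadm4 (0.89) and Nek2 (0.89). The other members had too few counts for this comparison, with 10 or more counts in at most 4 of the 20 samples.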

How the data were processed

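RNA of the IS, caput and testis was sequenced by the authors in short single-end reads. Per the paper's methods, reads were aligned to mm10 with STAR and uniquely mapped reads were counted on RefSeq genes with Subread (1.5.1 in the submitters' processing notes). The authors deposited raw counts per gene and sample, with no normalization. The labels and the methods name different TruSeq kits, and the strand setting of the counting is not given in the sources used here. The members and lists were chosen with earlier results of these data known. Groups came from the sample titles, and per the methods the replicates of a group are tissues of separate mice.

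Each tissue was fitted by itself in edgeR 4.0.16 (R 4.3.3) with filterByExpr (minimum count 10, minimum total 15), TMM factors, a robust quasi-likelihood test and Benjamini-Hochberg adjustment over all genes. The 13 WT samples were fitted together for tissues, with IS and caput alone for the segments, and the 20 epididymal samples for the interaction. Calls needed an adjusted p below 0.01 (0.2 in testis) and a fold above 2, the interaction no fold. SE is the log2 difference divided by the root of F. Exon lengths were unions of GENCODE vM21 basic exons, found for all 53 genes. Named were the 6 members, listed genes called in a comparison, the listed gene highest per length in each WT tissue and role, and the 3 genes most like each member with 10 counts in at least 5 epididymal samples. Other genes were named after their values were seen. Alternatives were RLE factors, library size alone, no filter beyond 1 count, DESeq2 1.42.0, limma 3.58.1 with voom, the replicate number as a block, no fold limit and each sample left out. The ROTS test of the methods was not run. The fits were also run on simulated data, and the outcome is not given here. ChIP data were not analysed here, and some genes are counted in the lists but not reported by name or plotted.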

Additional observations from a re-analysis of the deposited data

Results flagged for a closer look

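The Slc6a12 level of ArKI caput replicate 3, 19.3 CPM, stood below the other 4 ArKI caput samples (24.5 to 26 CPM) by more than Dixon's 95% limit for 5 samples, its gap being 0.775 of the group's range. It was still above the highest WT caput sample (16.6 CPM), and the log2 difference without it was 1.11. The same sample had the highest Rnase10 of the ArKI caput (616 CPM). Of 10 groups of 5 samples tested in this way this was the only one past the limit, and chance flags about 1 in 20 groups.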

How the results depend on the processing

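Without the fold limit, the number of listed GABA-related genes called rose from 0 to 6 in the IS and from 0 to 6 in the caput between ArKI and WT, from 0 to 3 in the testis, and from 9 to 20 between the WT segments. Leaving out single samples gave 0 to 1 such genes in the caput (1 without WT replicate 3), 0 to 1 in the testis (1 without WT replicate 2 or ArKI replicate 3) and 0 to 1 for the interaction (1 without IS ArKI replicate 3 or caput ArKI replicate 4). The sign of the small testis differences turned for Slc6a11 (-0.065 without WT replicate 1 and -0.123 without ArKI replicate 1, range -0.123 to 0.178) and Slc6a12 (-0.083 without ArKI replicate 3, range -0.083 to 0.70), and that of Slc6a12 between WT testis and IS with library size alone (-0.044). The cause was not tested. Slc6a11 against the WT caput was 5.77 by limma-voom instead of 7.83, where the lower group has 0 counts and the fitted value is no bound. In the epididymis the Gabrr1 difference lay between -3.97 and -3.63 in the IS and between -4.59 and -4.22 in the caput when single samples were left out, and between -3.82 and -3.64 and between -4.51 and -4.36 under the other alternatives. Slc6a12 in the caput lay on both sides of the fold limit, between 0.92 and 1.21 with single samples left out. Slc6a13 between the WT segments had an adjusted p above 0.01 with the replicate block, under the fold limit in either fit. Otherwise the tested values of the members kept their direction and their side of the thresholds under the alternatives run.

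Equal replicate numbers were not taken to pair the samples, since for no 2 groups were the correlations of same-numbered samples all above 0.1 (-0.09 to 0.217 between IS ArKI and IS WT). Between the IS and caput of WT mice they ran from -0.00579 to 0.225, with replicates 3, 4 and 5 each correlating best with their own number, and between those of ArKI mice from -0.108 to 0.209, with replicates 4 and 5 doing so. With the replicate block the Gabrr1 difference was -3.81 in the IS and -4.41 in the caput, that of Slc6a12 in the caput 1.04 and the Slc6a13 difference between the WT segments 0.78 (given with that result). Between genotypes equal numbers are different mice, so there the block joins no tissues of the same mouse. The block changed no count of calls by over 1.5 times.

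Depth limits Gabrr2, Gabrp and Slc6a11 in the epididymis, where most samples lie at or under 3 counts. Slc6a12 passed the filter in the IS only with some samples left out or with no filter.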
